A study of Rattus norvegicus with 6 samples.

Results

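Interferon-stimulated effector genes encode the proteins that carry out the antiviral response to interferon. A list of 48 such genes was read from the RNA-seq of the inner medulla tip (IM tip), the terminal part of the kidney inner medulla, in control and diabetic rats. Genes were taken by name, from a list drawn up with earlier results of these data known. Of the 48 names, 37 had a row of their own among the 27321 features of the table, and 35 had a mean of at least 5 normalized counts over the 6 libraries. These 35 members are the genes described here, among 13486 features with such a mean. The 11 names with no row (Oas2, Oas3, Gbp2, Eif2ak2, Samhd1, Parp12, Parp14, Ifi44, Ifi44l, Bst2 and Xaf1) were not analysed here.

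All rats were male Sprague-Dawley animals, 3 months of age according to the labels. The STZ group was 3 rats that received a tail vein injection of streptozotocin (STZ), a toxin of the pancreatic beta cells that induces diabetes, at 62.5 mg/kg. The Control group was 3 rats that received the vehicle, and tissue of both groups was taken on day 15 after the injection. Libraries are named Control 1 to 3 and STZ 1 to 3 by the replicate numbers of the labels, with 1 library for each rat. The labels say no more of how replicates were formed, so p-values measure the spread between these libraries.

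Interferons are secreted when a cell senses viral or displaced nucleic acid. They bind receptors on the same and neighbouring cells, and a complex that holds STAT2 and IRF9 then enters the nucleus and binds the interferon-stimulated response element (ISRE) in the promoters of many genes. Their products sense RNA, block translation, degrade RNA or trap viral particles, and many are also expressed at a low level in tissue without infection.

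Most of these genes were lower in the STZ rats, and those that passed the test were all lower. By limma, 6 of the 35 had an adjusted p under 0.05, namely Ifit3, Ifit2, Gbp5, Ddx58, Mx2 and Isg20. Of all 13486 features tested, 0.927% passed in that direction. In the higher direction 0 members passed by limma or edgeR, or at an unadjusted p under 0.05 by limma. Of all features, 1.17% passed limma's adjusted threshold in that direction. DESeq2 called 0 members higher, but gave no adjusted p for Oas1f and Ifit1lb. The log2 fold change was under 0 in 32 of 35 members, against 49.5% of all features, and its median was -0.90 in the members and 0.0056 in all features. In 18 members every STZ value lay below every Control value, against 10.3% of all features. The opposite order, all STZ values above the Control values, held for 0 members and 10.1% of all features. At an unadjusted p under 0.05, 22 members were lower, against 6.99% of all features. On the whole reads recovered from the values, edgeR called 4 members lower (0.994% of all features) and DESeq2 called 13 (2.02%). The 13 were the 6 above with Oasl, Oasl2, Oas1b, Isg15, Usp18, Dhx58 and Sp100. All fold changes compare STZ with Control. Unless edgeR or DESeq2 is named, they are on log2(normalized count + 1), a scale that understates the change of genes with few reads.

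**Figure D1:**
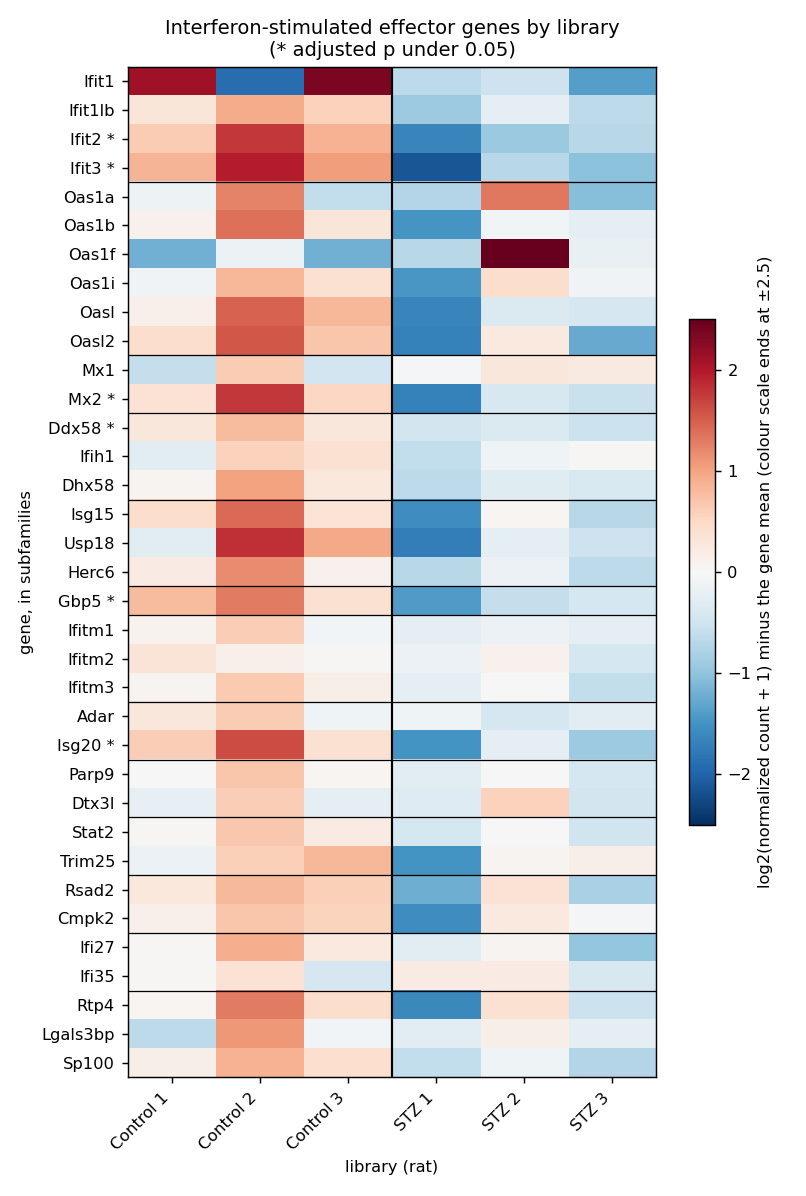
Level of each of the 35 genes (vertical axis, in subfamilies) in each of the 6 libraries (horizontal axis). Colour is the log2(normalized count + 1) minus the mean of the gene over the 6 libraries, with red above and blue below, and the scale ends at 2.5 on either side. Control 2 is red in most rows and blue for Ifit1, STZ 1 is blue in most rows, and STZ 2 is dark red for Oas1f.

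The libraries held between 3412311 and 5575171 reads on genes, with Control 2 the deepest. Control 2 also stood apart among these genes: it had the highest value of all 6 libraries in 30 of 35 members, against 12.4% of all features. Its values were a median of 1.72 times the mean of Control 1 and Control 3 in the members, and 0.962 times in all features. Among the diabetic rats, STZ 2 was the highest in 29 of 35 members, against 27.9% of all features. STZ 1 had the lowest value of all 6 libraries in 19 members, against 16.5% of all features. STZ 1 and Control 1 had a read on fewer features (18212 and 18268) than the other libraries (19885 to 21064). The part of this in the values of single genes was not tested. Without Control 2, limma called 3 members lower (Ifit1, Ifit2 and Ifit3), against 0.289% of all features, and 29 of 35 members still had a log2 fold change under 0, with a median of -0.73. By the column names, lane 3 held the 3 Control libraries, and STZ 1, 2 and 3 were run on lanes 7, 6 and 8. Lane and diabetes therefore cannot be told apart.

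The tissue held several cell types, and in bulk tissue fewer cells of a type and less RNA per cell cannot be told apart. Markers of some of these cell types differed between the groups. Of 7 endothelial markers, 6 had a row and 2 were called lower (Emcn and Plvap), and their summed level lay between 7044 and 9167 normalized counts in Control libraries, against 3704 to 4110 in STZ libraries. Most of this gap was Emcn, with a mean of 5510 in Control and 2095 in STZ libraries. At an unadjusted p under 0.05 by limma 4 were lower and 1 higher, the latter being Tie1 (log2 fold change 0.55), and Pecam1 overlapped between the groups (log2 fold change 0.04). Within the Control group, Control 2 had the lowest sum for endothelial (7044), intercalated cell (468) and urothelial (85.4) markers. For the other marker lists the lowest Control sum was in Control 1 or Control 3. The 4 markers of intercalated cells summed to 468 to 773 in Control and 172 to 238 in STZ rats, with 3 called lower. For the thick ascending limb, 3 of 5 markers had a row and 2 were called lower (Umod and Egf), with sums of 1099 to 1886 in Control and 210 to 597 in STZ rats. Urothelial markers went the other way, with sums of 85.4 to 132 in Control libraries against 440 to 517 in STZ libraries, with 2 of the 5 with a row called higher (Upk1b and Upk3a). Upk3a carried most of this gap, with a mean of 35.3 in Control and 344 in STZ rats, while Upk1a and Upk3b overlapped between the groups. The 5 principal cell markers with a row, of 6, summed to 10782 to 18719 in Control and 18335 to 35407 in STZ rats, and those of the thin limb, 4 of 5, summed to 2103 to 2484 and 2376 to 3007. By limma and edgeR 0 of the principal cell and thin limb markers were called, and by DESeq2 2 principal cell markers (Aqp2 and Scnn1g) were called higher. At an unadjusted p under 0.05 by limma, 4 principal cell markers were higher and 0 thin limb markers differed. Of 19 leukocyte markers 16 had a row, and their sum lay between 662 and 1061 in Control libraries, against 810 to 892 in STZ libraries, with 0 of the 13 tested called by limma or edgeR, 1 called lower by DESeq2 (Cd14) and 1 lower at an unadjusted p under 0.05 by limma. No marker with a row was at 0 in all 6 libraries. The part of these cell types in the levels of interferon-stimulated genes was not tested.

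The element through which interferon acts could be read in the promoters of some members. Promoters of 300 bases, from 250 before to 50 after the gene start, came from RefSeq on the GRCr8 assembly, and 23 of the 35 members matched a single entry. The element was searched as GAAANNGAAA on both strands, where N is any base. It was present in 14 of these 23 members (60.9%) and in 1312 of all 33469 promoters (3.92%). Of the 6 called genes, Ifit3, Gbp5 and Isg20 had an entry, and all 3 held the element. These 3 are shown because they join a called decrease with a match, each 5′ to 3′ on the strand of the gene, with the match in capitals.
Ifit3, GRCr8 chr1:241527242-241527325, plus strand, match on the reverse strand starting 44 bases before the gene start: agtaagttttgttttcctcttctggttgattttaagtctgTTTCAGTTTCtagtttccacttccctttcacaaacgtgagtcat
Gbp5, GRCr8 chr2:233910903-233910992, plus strand, match on the reverse strand starting 56 bases before the gene start: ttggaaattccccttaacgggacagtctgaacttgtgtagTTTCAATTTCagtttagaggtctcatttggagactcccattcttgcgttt
Isg20, GRCr8 chr1:142239927-142240016, plus strand, match on the forward strand starting 92 bases before the gene start: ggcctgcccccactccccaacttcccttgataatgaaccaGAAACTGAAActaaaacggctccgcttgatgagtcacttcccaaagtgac
A match describes these letters and is not evidence of a bound factor in these rats. The match was also present in members far from the threshold, such as Lgals3bp and Oas1a.

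The Ifit genes encode tetratricopeptide repeat proteins that bind foreign RNA and block its translation. In the rat genome used by the authors (rn4) the 4 members lay within 50.8 kb of chromosome 1. Ifit3 (rn4 chr1:238571299-238576439), a partner that stabilises the binding of RNA by IFIT1, had 315, 681 and 362 normalized counts in Control 1, 2 and 3 and 39.0, 107 and 85.3 in STZ 1, 2 and 3. Every STZ value was less than any Control value. Its mean was 453 ± 199 for Control against 77.0 ± 34.7 for STZ (SD, n = 3 per group), 5.87 times higher in Control, and the log2 fold change was -2.57 with an SE of 0.38 (limma, adjusted p = 0.00704). Among the 35 members this was the largest decrease.

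Ifit2 (rn4 chr1:238559728-238565790), which binds AU-rich viral RNA and promotes cell death, had 298, 659 and 350 normalized counts in Control rats, against 60.4, 99.9 and 118 in STZ rats. The groups did not overlap, and Control 2 was again the highest library. The mean was 436 ± 195 for Control against 92.9 ± 29.7 for STZ (SD, n = 3 per group), with a log2 fold change of -2.18 with an SE of 0.32 (limma, adjusted p = 0.00754). Ifit2 and Ifit3 were the members whose call held when any single library was left out, with limma's adjusted p at most 0.0273 for Ifit2 and 0.0341 for Ifit3, both without Control 2. Both lost the call without a filter on low values (adjusted p of 0.179 for Ifit2 and 0.191 for Ifit3 by limma) and without the intensity trend (0.117 for both).

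Ifit1 (rn4 chr1:238609168-238610557), which binds viral mRNA without a methylated cap, behaved otherwise. It had 215, 12.2 and 252 normalized counts in the Control libraries and 30.6, 33.6 and 18.1 in the STZ libraries. Control 1 and Control 3 were far above the STZ libraries, whereas Control 2, the highest library for most members, was the lowest of the 6 for Ifit1. Its log2 fold change was -1.70 with an SE of 0.88 (limma, adjusted p = 0.412). Without Control 2 it was -3.09 (adjusted p = 0.0023 by limma). The 12.2 of Control 2 rested on 16 reads. Ifit1lb, a related copy in the same cluster, had 16.4, 25.9 and 20.04 in Control and 6.50, 10.9 and 8.03 in STZ rats. All its STZ values were below the Control values, with a log2 fold change of -1.21 with an SE of 0.39 (limma, adjusted p = 0.161). Only uniquely mapped reads were counted, so the split of reads between these near copies is uncertain, and whether mapping plays a part in the low Ifit1 value of Control 2 was not tested.

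**Figure D2:**
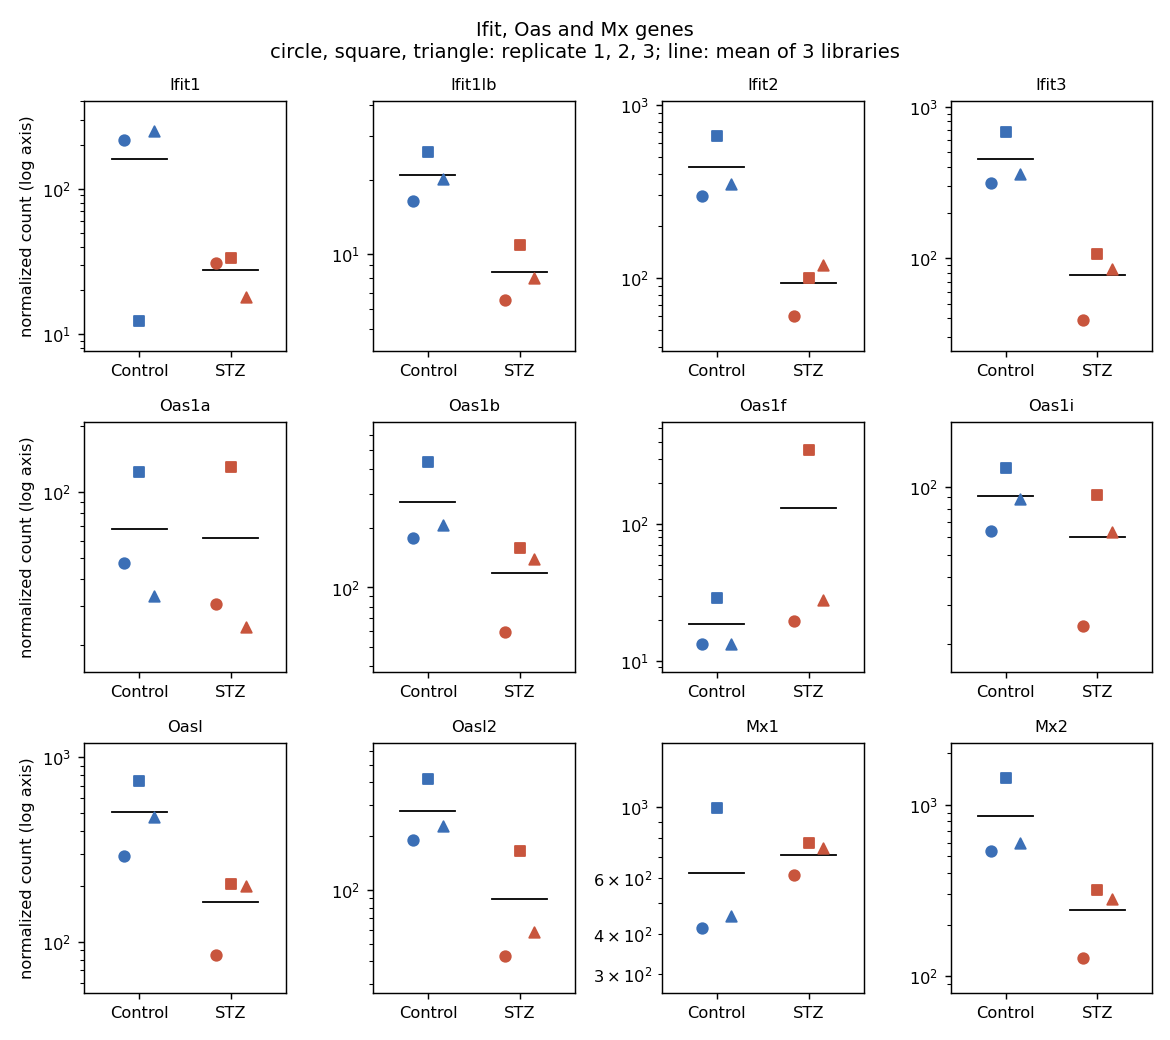
Normalized count (log axis) of each Ifit, Oas and Mx member in the 3 Control and 3 STZ libraries, with a circle, square or triangle for replicate 1, 2 or 3 and a line at the mean of 3 libraries. The square of Control 2 lies at the top of the Control group in 11 panels and at the bottom for Ifit1 (12.2), and the square of STZ 2 lies far above the other points for Oas1f (348).

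The Oas genes encode oligoadenylate synthetases and similar proteins. The active synthetases, on binding double-stranded RNA, make the 2′-5′ oligoadenylate that activates RNase L. By limma 0 of the 6 members passed the test, and 5 had a log2 fold change under 0, against 49.5% of all features. In 3 every STZ value lay below every Control value, against 10.3% of all features. DESeq2 called 3 lower, against 2.02% of all features. Its adjusted p-values were 0.000531 for Oasl, 0.00431 for Oasl2 and 0.0341 for Oas1b. With a minimum mean of 20, limma also called Oasl (adjusted p = 0.0393) and Oasl2 (adjusted p = 0.0432). The log2 fold changes ran from -1.80 in Oasl2 to 1.69 in Oas1f. The Oas1 genes lay within 109 kb of chromosome 12 and Oasl and Oasl2 within 52.9 kb elsewhere on that chromosome.

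Oasl, which encodes an oligoadenylate synthetase-like protein, had 290, 747 and 476 normalized counts in Control and 84.5, 207 and 201 in STZ rats. The highest STZ library was below the lowest Control library, and the log2 fold change was -1.62 with an SE of 0.39 (limma, adjusted p = 0.059). Without Control 1 it passed, with an adjusted p of 0.0419. Its neighbour Oasl2 had 190, 415 and 228 in Control and 42.7, 165 and 58.2 in STZ rats, again without overlap. STZ 2 stood close to the Control range, and the log2 fold change of -1.80 with an SE of 0.44 (limma, adjusted p = 0.067) became -2.37 without that library (adjusted p = 0.0115 by limma).

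Oas1b, whose mouse counterpart determines resistance to flaviviruses, had 179, 435 and 207 normalized counts in Control and 59.4, 158 and 140 in STZ rats. These groups did not overlap (log2 fold change -1.20 ± 0.40 SE, limma adjusted p = 0.165). Oas1i had 63.6, 121 and 87.9 in Control and 24.1, 92.0 and 63.2 in STZ rats, which overlapped through STZ 2 (log2 fold change -0.74, adjusted p = 0.471 by limma). For Oas1a the values were 47.2, 123 and 33.4 in Control and 30.6, 131 and 24.1 in STZ rats. In both groups replicate 2 was far above the other replicates, and the log2 fold change of -0.32 with an SE of 0.60 (limma, adjusted p = 0.897) turned to 0.21 without Control 2 and to 0.13 without STZ 3.

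Oas1f was the member with the highest log2 fold change, and a single library set it. It had 13.3, 29.0 and 13.4 normalized counts in Control and 19.5, 348 and 28.1 in STZ rats. STZ 2, with 352 reads, stood alone, while the other STZ libraries lay within the Control range. The log2 fold change was 1.69 with an SE of 0.84 (limma, adjusted p = 0.392), and 0.41 without STZ 2 (adjusted p = 0.879 by limma). On the recovered reads edgeR gave a log2 fold change of 2.78 (adjusted p = 0.179). DESeq2 gave 2.82 with an SE of 1.24 and no adjusted p. Oas1k, a further gene of this cluster with a mean below 5, had 0 reads in the 3 Control libraries and in STZ 3, and 1.86 and 9.89 normalized counts in STZ 1 and STZ 2. A count of 0 allows up to 3 reads, and with at most 10 reads in any library Oas1k was not tested.

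Promoters of 3 of these Oas1 genes are shown because each carried a pair of overlapping elements, in capitals, although their values differed between the libraries in different ways. They were chosen after the values were seen. Each is 5′ to 3′ on the strand of the gene.
Oas1a, GRCr8 chr12:41330385-41330465, plus strand: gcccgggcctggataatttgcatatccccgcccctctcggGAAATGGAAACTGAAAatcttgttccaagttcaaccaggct
Oas1b, GRCr8 chr12:41395856-41395951, minus strand: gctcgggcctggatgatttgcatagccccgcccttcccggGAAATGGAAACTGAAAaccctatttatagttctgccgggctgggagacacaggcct
Oas1i, GRCr8 chr12:41285150-41285225, plus strand: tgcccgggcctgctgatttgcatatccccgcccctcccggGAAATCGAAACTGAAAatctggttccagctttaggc
The first element began 41, 59 and 36 bases before the start of Oas1a, Oas1b and Oas1i. The 300 bases of Oas1f held no match to these letters. The Oas1 genes are close copies, so reads that fit several of them were not counted and the level of each is uncertain to that extent.

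Mx1 and Mx2 encode dynamin-like GTPases that block the replication of RNA viruses, and are neighbours on chromosome 11. Mx2 (rn4 chr11:37548832-37572714) had 537, 1432 and 600 normalized counts in Control and 128, 317 and 283 in STZ rats. Every STZ value was below the Control values. The mean was 857 ± 500 for Control against 243 ± 101 for STZ (SD, n = 3 per group), with a log2 fold change of -1.77 with an SE of 0.40 (limma, adjusted p = 0.0489). Mx2 lay close to the threshold, at an adjusted p of 0.0514 by edgeR, and between 0.0373 and 0.18 by limma with a library left out. Mx1 had 419, 992 and 456 in Control and 611, 771 and 742 in STZ rats. In Mx1 all STZ values lay between the highest and the remaining Control values, with a log2 fold change of 0.29 with an SE of 0.30 (limma, adjusted p = 0.752). The Mx pair thus held a called decrease and a gene whose groups overlapped, and the difference between them was not tested.

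The RNA sensors detect viral RNA in the cytosol and start interferon production. Ddx58 (rn4 chr5:57597130-57645021), which encodes RIG-I, had 408, 587 and 408 normalized counts in Control and 244, 262 and 233 in STZ rats. The STZ libraries lay close together below all Control libraries, with means of 468 ± 103 and 246 ± 14.7 (SD, n = 3 each). The log2 fold change was -0.90 with an SE of 0.20 (limma, adjusted p = 0.0449). With a library left out, limma's adjusted p ran from 0.0366 without Control 3 to 0.194 without Control 2. Dhx58, which encodes the regulator LGP2, had 93.3, 178 and 107 in Control and 55.7, 71.2 and 67.3 in STZ rats. The groups did not overlap, and the log2 fold change was of the same size at -0.90 (SE 0.26, adjusted p = 0.119 by limma). Ifih1, which encodes MDA5, had 37.9, 68.6 and 60.1 in Control and 29.7, 42.5 and 47.2 in STZ rats. These overlapped, with a log2 fold change of -0.45 with an SE of 0.29 (limma, adjusted p = 0.547).

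ISG15 is a ubiquitin-like protein that is joined to other proteins after interferon. Isg15 had 499, 981 and 469 normalized counts in Control and 124, 379 and 228 in STZ rats. No STZ value reached the Control range, and the log2 fold change was -1.47 with an SE of 0.38 (limma, adjusted p = 0.0833). Herc6, its main ligase in rodents, had 75.9, 150 and 70.1 in Control and 39.9, 59.3 and 41.2 in STZ rats. Here too the groups did not overlap (log2 fold change -0.99 ± 0.31 SE, limma adjusted p = 0.142). Usp18, which removes ISG15 and restrains the interferon receptor, had 36.9, 162 and 87.9 in Control and 13.0, 38.6 and 31.1 in STZ rats. STZ 2 slightly exceeded Control 1, and the log2 fold change was -1.65 with an SE of 0.51 (limma, adjusted p = 0.14).

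Gbp5 (rn4 chr2:240428471-240447781) encodes a guanylate-binding protein, a GTPase that acts in inflammasome assembly and responds strongly to interferon gamma. It had 278, 400 and 209 normalized counts in Control and 59.4, 106 and 118 in STZ rats. All STZ libraries were well below all Control libraries, with means of 296 ± 96.5 and 94.6 ± 31.1 (SD, n = 3 each). The log2 fold change was -1.64 with an SE of 0.30 (limma, adjusted p = 0.0207). With a library left out, limma's adjusted p was 0.0582 without Control 1, 0.108 without Control 2 and 0.054 without STZ 2, and otherwise at most 0.0452.

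**Figure D3:**
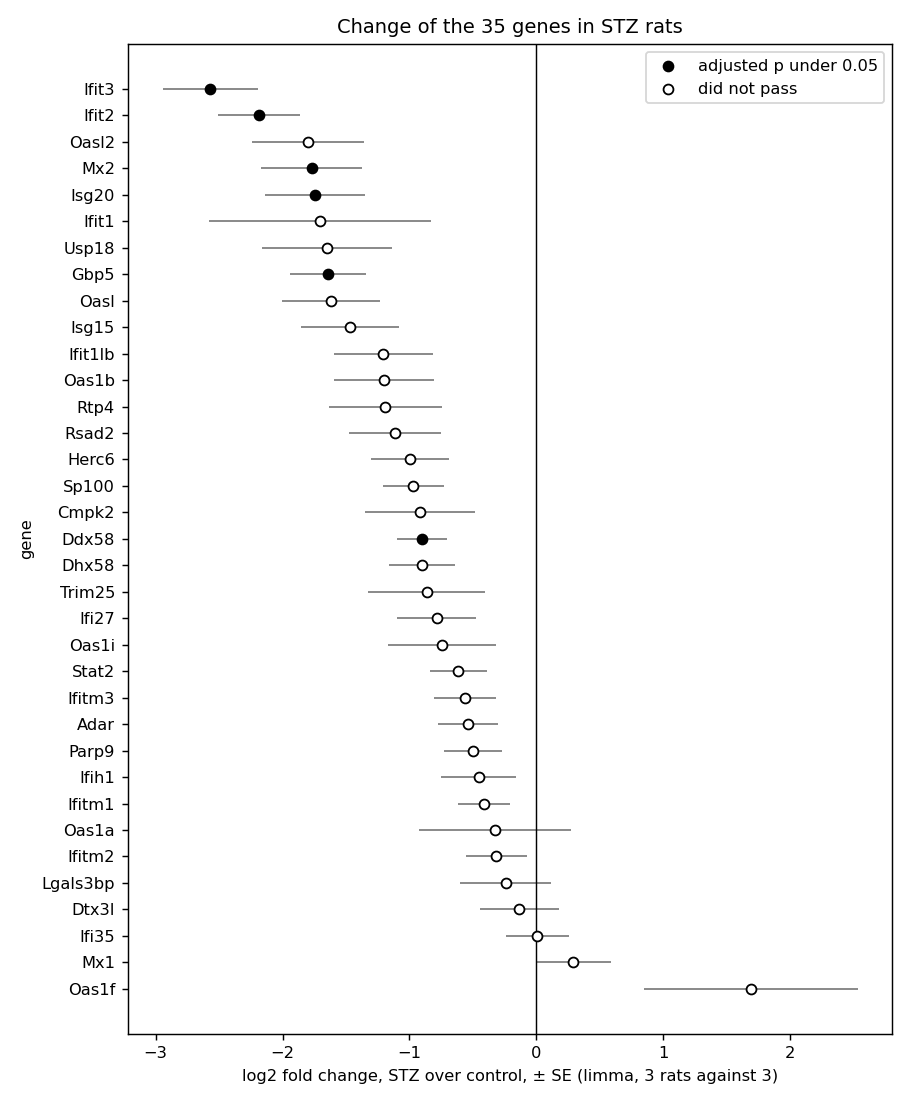
Log2 fold change of STZ over Control (horizontal axis) for each of the 35 genes, with bars of 1 SE from limma on 3 rats against 3. Filled points have an adjusted p under 0.05. Of the 35 points 32 lie left of 0, and Oas1f has the highest value (1.69) with a wide bar.

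The Ifitm genes encode membrane proteins that hinder the entry of viruses, and lay within 65.5 kb of chromosome 1. Their differences were small. Ifitm3 had 4683, 7032 and 4941 normalized counts in Control and 3815, 4523 and 2921 in STZ rats, without overlap (log2 fold change -0.56 ± 0.24 SE, limma adjusted p = 0.31). Ifitm1 had 376, 542 and 337 in Control and 303, 320 and 301 in STZ rats, also without overlap (log2 fold change -0.41, adjusted p = 0.40 by limma). In Ifitm2, with 14622, 12808 and 12039 in Control and 10596, 12741 and 8661 in STZ rats, STZ 2 lay within the Control range. Its log2 fold change was -0.32 (adjusted p = 0.635 by limma). A further feature of the table named for Ifitm2 and Ifitm3 jointly held 31.1 to 74.0 normalized counts, and which reads it received was not stated in the sources used here.

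Isg20 (rn4 chr1:134631523-134637866), an exonuclease that degrades single-stranded RNA, was called lower. It had 59.5, 121 and 50.1 normalized counts in Control and 13.0, 32.6 and 20.1 in STZ rats. The groups did not overlap, with means of 76.7 ± 38.2 and 21.9 ± 9.95 (SD, n = 3 each) and a log2 fold change of -1.75 with an SE of 0.39 (limma, adjusted p = 0.0489). As for Mx2 the call was narrow: edgeR gave an adjusted p of 0.0501, and with a library left out limma gave 0.0297 without Control 3 and at least 0.0507 otherwise. Adar, which edits adenosine to inosine in double-stranded RNA, had 105, 133 and 79.0 in Control and 79.9, 63.3 and 70.3 in STZ rats. The lowest Control library fell within the STZ range (log2 fold change -0.54 ± 0.24 SE, limma adjusted p = 0.324). Zbp1, a sensor of Z-form nucleic acid, held at most 3 reads in any library and was not tested.

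Parp9 and Dtx3l, neighbours on chromosome 11, encode a complex of an ADP-ribosyltransferase family member and a ubiquitin ligase. Parp9 had 291, 466 and 296 normalized counts in Control and 236, 285 and 211 in STZ rats, without overlap (log2 fold change -0.50 ± 0.23 SE, limma adjusted p = 0.338). Dtx3l had 168, 299 and 167 in Control and 154, 292 and 142 in STZ rats. Replicate 2 was the highest in both groups for Dtx3l and the groups overlapped (log2 fold change -0.13 ± 0.31 SE, limma adjusted p = 0.923).

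Stat2, part of the complex that binds the response element, had 658, 1030 and 740 normalized counts in Control and 472, 650 and 456 in STZ rats. The STZ values were all lower, by a log2 fold change of -0.61 with an SE of 0.22 (limma, adjusted p = 0.213). Trim25, a ubiquitin ligase that acts on RIG-I, had 20.5, 35.1 and 41.2 in Control and 7.43, 23.7 and 25.1 in STZ rats. Its groups overlapped at Control 1 (log2 fold change -0.86 ± 0.46 SE, limma adjusted p = 0.432).

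Rsad2 and Cmpk2 are neighbours on chromosome 6 and encode viperin, which makes a chain-terminating nucleotide, and the kinase that supplies its substrate. Rsad2 had 76.9, 114 and 96.8 normalized counts in Control and 26.9, 82.1 and 36.1 in STZ rats. STZ 1 and STZ 3 were well below the Control range and STZ 2 within it, and the log2 fold change of -1.11 with an SE of 0.36 (limma, adjusted p = 0.16) became -1.57 without STZ 2 (adjusted p = 0.0396 by limma). Cmpk2 had 31.8, 48.1 and 43.4 in Control and 9.29, 34.6 and 28.1 in STZ rats. Again STZ 2 alone reached the Control range (log2 fold change -0.91 ± 0.43 SE, limma adjusted p = 0.365).

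Of the remaining members, Sp100, a component of nuclear bodies, had 216, 355 and 262 normalized counts in Control and 126, 180 and 116 in STZ rats. The groups did not overlap, and the log2 fold change was -0.97 with an SE of 0.24 (limma, adjusted p = 0.0709). Rtp4, a chaperone of receptors, had 178, 427 and 235 in Control and 55.7, 225 and 118 in STZ rats, and STZ 2 exceeded Control 1 (log2 fold change -1.19 ± 0.45 SE, limma adjusted p = 0.231). Ifi27, a small membrane protein, had 5015, 9291 and 5818 in Control and 4055, 5207 and 2515 in STZ rats. The overlap was narrow, between STZ 2 and Control 1 (log2 fold change -0.78 ± 0.31 SE, limma adjusted p = 0.257). Lgals3bp, a secreted glycoprotein that binds galectin-3, had 359, 1212 and 540 in Control and 474, 628 and 479 in STZ rats. All its STZ values lay within the Control range, and its log2 fold change of -0.24 with an SE of 0.36 (limma, adjusted p = 0.863) turned to 0.25 without Control 2. Ifi35, an inducible leucine zipper protein, had 337, 423 and 246 in Control and 381, 378 and 249 in STZ rats. The groups overlapped almost throughout (log2 fold change 0.01 ± 0.25 SE, limma adjusted p = 0.995).

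**Figure D4:**
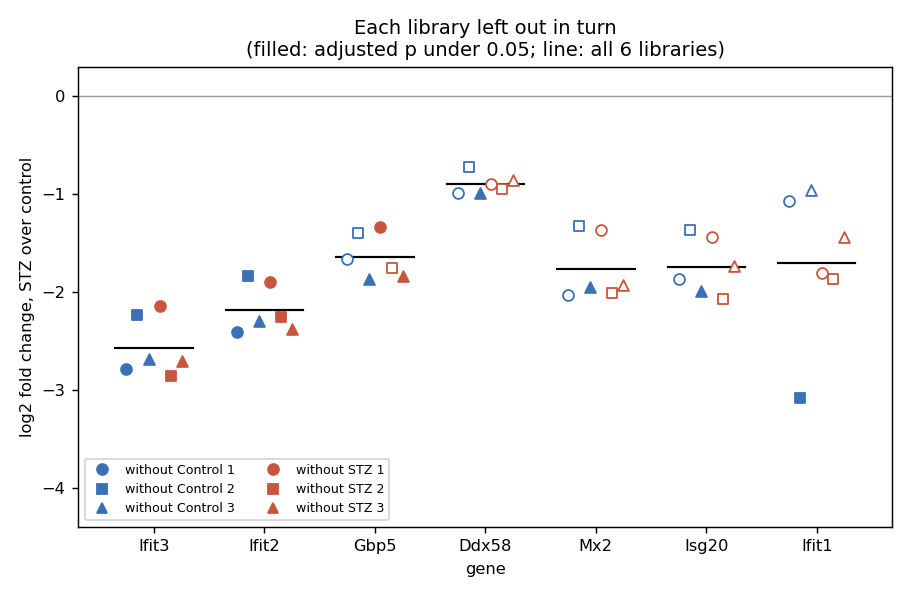
Log2 fold change of STZ over Control (vertical axis) for the 6 called genes and Ifit1, with each of the 6 libraries left out in turn. The line is the value with all libraries, and filled symbols have an adjusted p under 0.05. Ifit3 and Ifit2 are filled throughout, the other called genes only in part, and Ifit1 only without Control 2 (-3.09).

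The signalling genes of the pathway did not pass the test. Of 44 genes for ligands, receptors, signalling proteins, inhibitors and adaptors of nucleic acid sensing, 25 had a row and 19 were tested. By limma and edgeR 0 of these 19 were called in either direction, and by DESeq2 1 was called lower (Irf1). At an unadjusted p under 0.05 by limma, 4 of the 19 were lower, against 6.99% of all features, and 1 was higher. Interferons themselves were at the floor: of 12 ligand genes, Ifna1, Ifna11, Ifnb1, Ifng and Ifnk had a row, with at most 3 reads in any library. At this depth a difference in these ligands was not detectable. The receptor chains Ifnar1 (log2 fold change 0.13, adjusted p = 0.86), Ifngr1 (-0.16, adjusted p = 0.771), Ifngr2 (0.45, adjusted p = 0.658) and Il10rb (-0.08, adjusted p = 0.929 by limma) all overlapped between the groups. Irf9, the DNA-binding part of the complex with STAT2, also overlapped (log2 fold change 0.24, adjusted p = 0.825 by limma). Irf7, the factor that amplifies interferon production and is itself induced by interferon, had 1324, 4294 and 2204 normalized counts in Control and 448, 1222 and 503 in STZ rats. Every STZ value was below the Control values and Control 2 was again the highest, with a log2 fold change of -1.83 with an SE of 0.44 (limma, adjusted p = 0.0591).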

How the data were processed

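RNA from the IM tip of 3 Control and 3 STZ rats was converted to cDNA with a PCR-based kit and sequenced without molecular identifiers. Following the study's methods and the submitters' processing notes, the authors aligned reads with STAR 2.3.1t to rn4, counted uniquely mapped reads on the Ensembl RGSC3.4 annotation and normalized with DESeq 1.16.0; which program counted the reads, and whether it used strand, is not given in the sources used here. The deposited signal is the normalized count, a count divided by 1 size factor per library. The normalized count of 1 read was estimated for each library from its smallest values. Dividing by it gave whole reads for 100% of values in every library (tolerance 0.01 reads), between 3412311 and 5575171 per library. Floors of 3 reads cover counting error only.

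The log2(normalized count + 1) values of both groups were compared in R 4.3.3 by limma 3.58.1 with a mean-variance trend and no covariates. Features needed a mean of 5 or more, which 13486 had. Adjusted p-values are Benjamini-Hochberg values over all of these, with a threshold of 0.05. The alternatives were pseudocounts of 0.5 and 5, a minimum mean of 20, no filter, equal library totals, no intensity trend, edgeR 4.0.16 (quasi-likelihood, TMM) and DESeq2 1.42.0 on the recovered reads, a replicate block, and each library left out. The scripts were tested on simulated data.

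All 48 listed names were accounted for, with receptors, Irf7 and Irf9 named in addition. A further pathway gene is not reported here. The members, pathway lists and markers were chosen with earlier results of these data known. The markers named, and Irf1, were chosen after their values were seen. Promoters came from RefSeq (GRCr8) and were matched by symbol or synonym, and gene coordinates are those of rn4 in the table. Of the promoters, up to 5 called members with a match were to be printed. Protein measurements, blots and qPCR were not analysed here. Figures were made with Python 3.11.15, pandas 2.3.3 and matplotlib 3.10.9.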

Additional observations from a re-analysis of the deposited data

How the results depend on the processing

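By limma with all libraries, 6 members and 283 features were called. Pseudocounts of 0.5 and 5 gave 4 and 6 members, with 273 and 295 features. A minimum mean of 20 gave 9 of the 34 members tested, with 402 of 9315 features. Equal library totals gave 4 members and 389 features, and edgeR 4 and 287. Without a filter 0 members and 98 features were called, without the intensity trend 0 and 31, and with DESeq2 13 and 599. Leaving out each library gave 3 to 6 members and 88 to 352 features. The cause of these shifts was not tested. Direction was more stable than the calls: in every setting, between 29 and 33 of the members had a log2 fold change under 0, as did all 6 called members.

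The replicate numbers are shared by different rats, and the labels do not state whether they mark pairs. Over 9315 features, same-numbered libraries deviated together with r = 0.395, -0.0612 and 0.323 for replicates 1, 2 and 3. Deviations were taken from the mean of each library's own group, so the values of different combinations depend on each other. The values of replicates 1 and 3 exceeded those of every differently numbered combination, the highest being Control 3 with STZ 2 (0.220). Control 2 instead correlated best with STZ 1 (0.107). Of the 35 members, 32 had their highest Control value in Control 2, against 25.1% of all features. The highest STZ value was in STZ 2 for 29 members, against 27.9% of all features. Whether the rats were paired was not tested. With the replicate block 16 members and 561 features were called.

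Of 524 values of single members under the alternatives, 11 reversed in direction, in Oas1a (to 0.21 and 0.13), Dtx3l, Ifi35 and Lgals3bp. With libraries left out, log2 fold changes ran from -1.07 to 0.21 in Oas1a, from -0.46 to 0.15 in Dtx3l, from -0.20 to 0.21 in Ifi35 and from -0.63 to 0.25 in Lgals3bp. Ifi35 was -0.020 with equal library totals and -0.0019 with DESeq2. None of these genes was called. With 3 rats in each group and values that differ among Control rats by as much as in Mx2, differences near the threshold depend on single libraries.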
